A study of Mus musculus with 6 samples.

Results

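The samples described here are the ethanol-treated back skin of C57/BL mice, taken 2, 4 and 7 days after application. They are the control arm of a study of cyclosporin A, an immunosuppressant, and make up 6 of the 12 labelled samples of the series. Each of 6 dual-colour Agilent arrays carried 1 ethanol sample, labelled with the dye Cy3, and 1 cyclosporin A sample of the same day, labelled with Cy5. The members were chosen by channel, which is to say the Cy3 signal of all 6 arrays, 2 arrays for each of the 3 days. The labels give strain, tissue, agent and day for these samples. They call the agent of this arm control, and age, sex, dose and the number of animals are not given in the sources used here. Every spot also held the Cy5-labelled material, that channel was not used, and its part in the Cy3 values was not tested. Days 2 and 4 shared a slide and day 7 had a slide to itself, so that slide and day 7 cannot be told apart. The comparison between days asks how ethanol-treated skin itself changed over the week, in the samples that served as the study's baseline.

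Mouse hair follicles pass through cycles of growth, regression and rest, and in young adult back skin neighbouring follicles tend to cycle together. A growing follicle builds a hair shaft of hair keratins and keratin-associated proteins inside a rigid sleeve, the inner root sheath, which has keratins of its own. A resting follicle makes little of either, so that transcripts of these keratins serve as markers of growing follicles. Back skin also holds epidermis, dermal fibroblasts, fat, sebaceous glands, vessels, immune cells and a thin sheet of muscle.

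Values are log2 Cy3 signals corrected for background and given the same distribution on every array (quantile normalization). A spot counts as well above background where the scanning software marked it so. A gene was tested where it was well above background on both arrays of at least 1 day. The model (limma) fitted 1 mean per day and shared 1 estimate of the spread over all 6 arrays. A gene is called where its p-value, adjusted over all genes by the method of Benjamini and Hochberg, lay under 0.05. A fold is written "at least" where no array of the dimmer day was well above background. The series text calls the replicates biological, but the labels name no animals. A p-value here sets a difference between days only against the spread among these arrays, and 2 arrays a day limit the precision.

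Between 43.4% and 56.4% of probes were well above background per array, the median spot intensity was 203 to 277, and 0 spots were saturated. Markers of the main cell types of skin were well above background on 6 of 6 arrays, among them Krt5 and Krt14 of basal keratinocytes, Krt10 of differentiated ones, Col1a1 of fibroblasts, Adipoq of fat cells and Acta1 of skeletal muscle. The melanocyte gene Tyr and the hair shaft keratins Krt31 and Krt33a were so on 0 arrays. The X-inactivation transcript Xist was detected on 6 of 6 arrays and 4 Y-linked genes on 0. Day 7 replicate 1 stood apart: 50 genes lay more than 1 log2 unit above the median of the other 5 arrays on it alone and 57 below, where those 5 spanned under 0.5. On day 4 replicate 2 these counts were 7 and 28, and on the other 4 arrays at most 12 and 1.

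Few genes differed between days beyond the spread between arrays. Of 17122 genes tested, 1 rose and 0 fell from day 2 to day 4 (0.00584% called in all), 7 rose and 1 fell from day 2 to day 7 (0.0409% and 0.00584%, together 0.0467%), and 5 rose and 0 fell from day 4 to day 7 (0.0292%). A test for any difference among the 3 days called 5 genes (0.0292%). Unadjusted p-values under 0.05 were held by 1938, 2071 and 1574 genes in the same order, where 856 would be the share of a threshold of 0.05. At least 2-fold differences numbered 46, 94 and 68. The median difference over all genes was 0, -0.01 and -0.01. Without day 7 replicate 1, 5 genes were called from day 2 to day 7 and 4 from day 4 to day 7, and without day 4 replicate 2 these counts were 5 and 3, with 2 from day 2 to day 4. With the scanner software's own processed signals, 35 genes were called higher and 32 lower at day 7 than at day 2, and with background-subtracted signals 23 and 17. The day 4 and day 7 comparisons share the day 2 arrays, so that they are not independent of each other.

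**Figure D1:**
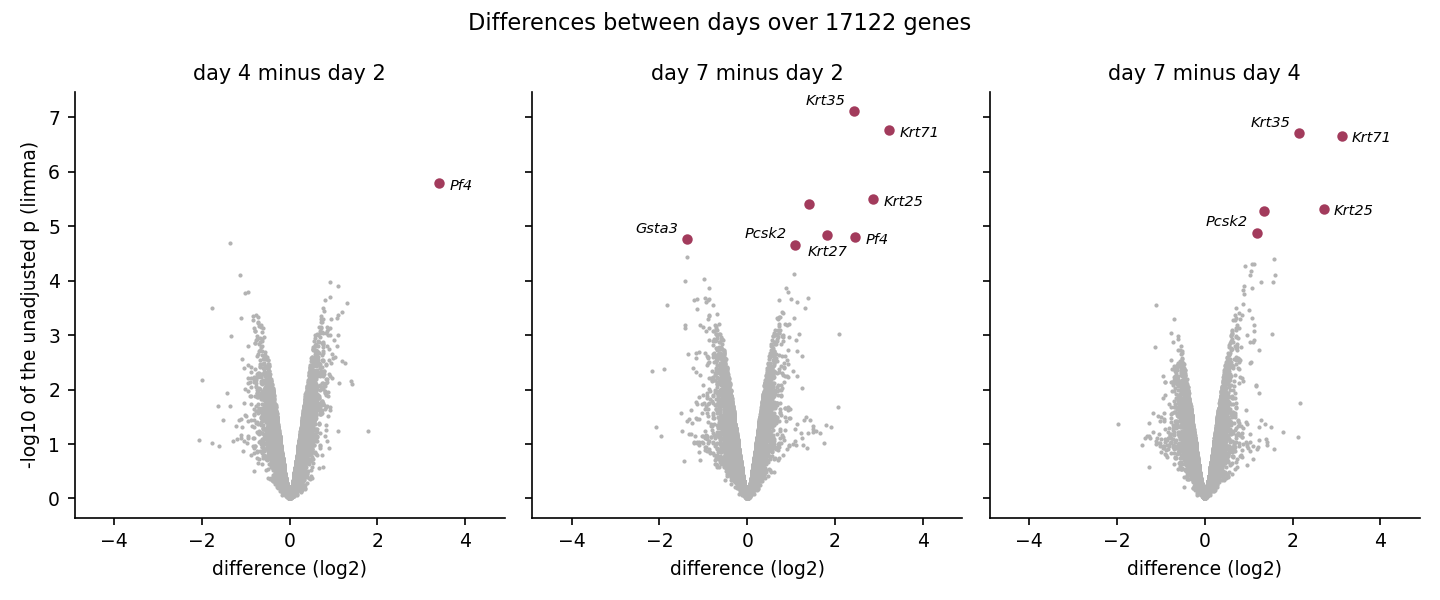
Each point is 1 of 17122 genes, with the log2 difference between 2 days across and -log10 of limma's unadjusted p upward; large points passed an adjusted p of 0.05. Pf4 is the only gene called between days 2 and 4, and keratins of the hair follicle lead both comparisons with day 7. The unlabelled large point in the middle and right panels is a transcript without a symbol in the naming table.

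Of the 7 genes that rose from day 2 to day 7, 3 were keratins of the inner root sheath. Krt71, Krt25 and Krt27 each encode a type of keratin made in the sheath, Krt71 a type II chain and the other two type I chains that pair with such a chain. Because these 3 genes moved together, the 100 bases before each transcription start are shown (RefSeq, mouse assembly GRCm38.p6, minus strand), with the capitals marking TATAAA, the letters of a TATA box.
Krt71, chr15:101743098-101743197: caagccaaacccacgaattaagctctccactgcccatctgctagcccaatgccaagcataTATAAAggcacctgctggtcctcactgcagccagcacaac
Krt25, chr11:99322952-99323051: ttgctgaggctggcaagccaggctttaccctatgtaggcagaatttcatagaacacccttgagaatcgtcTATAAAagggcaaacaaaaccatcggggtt
Krt27, chr11:99351119-99351218: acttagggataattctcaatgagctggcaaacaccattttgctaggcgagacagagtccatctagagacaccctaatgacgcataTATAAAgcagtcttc
All 3 windows hold 1 TATAAA, which begins at -40, -30 and -15 from the start in the order shown, while 5.56% of 32851 mouse promoter windows of this length hold it on either strand. The letters CTTTGA, the core bound by LEF and TCF factors, were searched on both strands too, are present in 4.97% of such windows and appear in 0 of these 3. A match is a description of the letters and not a measured site.

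Krt71 stood at 7.06 and 6.89 on the day 2 arrays, at 7.23 and 6.94 on day 4 and at 10.39 and 10.02 on day 7. Both day 7 arrays lay far above the other 4, which were close together, and on 3 of those 4 the spot was not well above background. The rise from day 2 to day 7 was 3.23 on the log2 scale (SE 0.171, at least 9.4-fold, limma adjusted p = 0.00148), and that from day 4 was 3.12 (SE 0.171, 8.72-fold, adjusted p = 0.00189). Krt25 stood at 6.43, 6.79, 6.69 and 6.83 on the arrays of days 2 and 4, none of them well above background, and at 9.8 and 9.14 on day 7. It was at least 7.27-fold higher at day 7 than at day 2 (2.86, SE 0.228, limma adjusted p = 0.0168) and at least 6.53-fold higher than at day 4 (2.71, adjusted p = 0.0223). Krt27 stood at 6.99 and 7.3 on day 2, at 7.57 and 7.23 on day 4 and at 9.12 and 8.82 on day 7. Again the day 7 arrays did not overlap the rest. The rise from day 2 was called (1.82, SE 0.18, at least 3.54-fold, limma adjusted p = 0.0421), and the difference from day 4, 1.57 or 2.98-fold, was not (adjusted p = 0.1).

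These 3 keratins passed the filter through day 7 alone, so that the filter itself favoured genes brighter there. Of the 12 inner root sheath genes listed, 7 had a named probe, and 5 passed the filter. The other members that passed were Gata3, a transcription factor needed for the sheath but also made in epidermis and T cells, and Padi3, a peptidylarginine deiminase that acts on trichohyalin. Gata3 ranged from 12.72 to 13.69 without a call, and its highest value was on day 4 replicate 2. Padi3 lay between 7.13 and 7.51 on days 2 and 4 and at 7.63 and 7.66 on day 7, also without a call. Krt26 and Tchhl1 were well above background on 0 arrays. The only sheath gene well above background on all 6 arrays was Gata3, which differed by 0.28 at day 7 from day 2 and by -0.2 from day 4. In each array the number of the 7 sheath genes well above background was 1 and 2 on day 2, 4 and 2 on day 4, and 5 and 5 on day 7. The call for Krt71 held under all 17 alternatives that tested it in both comparisons (largest adjusted p = 0.0352 against day 2 and 0.0453 against day 4). That of Krt25 against day 2 was lost under 5 of 17, including day 2 replicate 1 left out (adjusted p = 0.127) or either day 4 array left out (adjusted p = 0.0514), and against day 4 under 9 of 17. That of Krt27 was lost under 11 of 17, including without day 2 replicate 1, day 2 replicate 2, day 4 replicate 1, day 4 replicate 2 or day 7 replicate 1 (adjusted p = 0.0561 to 0.257).

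**Figure D2:**
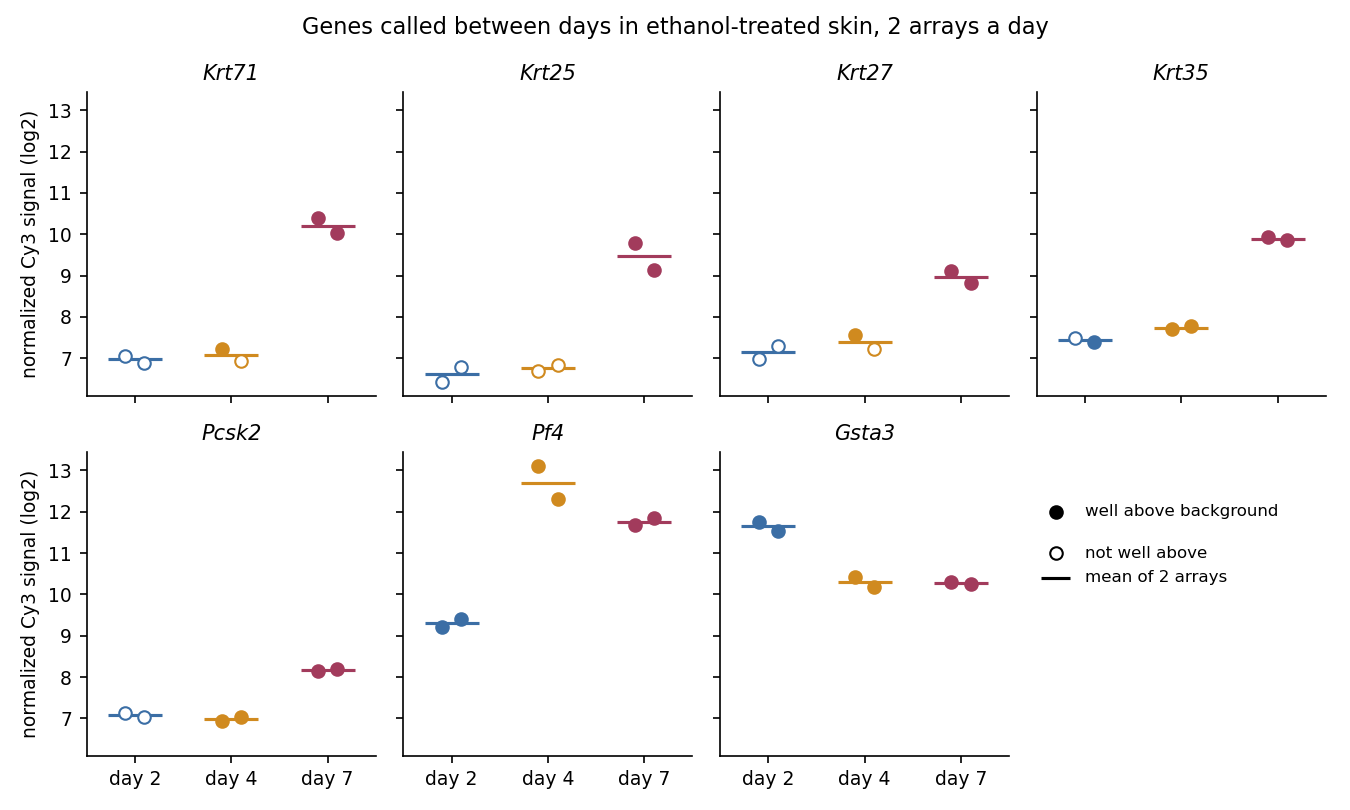
Normalized Cy3 signal (log2) of the 7 genes with a symbol that were called in any comparison, by day; circles are arrays, filled where the spot was well above background, and bars are the mean of the 2 arrays of a day. The 4 follicle keratins and Pcsk2 are high on day 7 alone, Pf4 is high on days 4 and 7, and Gsta3 is high on day 2 alone.

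Krt35 encodes a type I hair keratin found in the lower part of the hair shaft and its cuticle. It stood at 7.49 and 7.4 on day 2, at 7.7 and 7.78 on day 4 and at 9.93 and 9.85 on day 7, and was well above background on 5 of 6 arrays. The replicates of each day lay within 0.1 of each other, and day 7 was clear of both earlier days. Its rise from day 2 had the lowest p of that comparison (2.44, SE 0.116, 5.44-fold, limma adjusted p = 0.00133), and that from day 4 was 2.15 (SE 0.116, 4.44-fold, adjusted p = 0.00189). The call held under all 17 alternatives that tested it, with a largest adjusted p of 0.0233 against day 2 and 0.0317 against day 4.

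No other shaft gene on a named probe was called; probes without a symbol cannot be placed on a list. Of 14 hair shaft keratins listed, 8 had a named probe and 2 passed the filter, Krt35 and Krt84, a keratin known from tongue papillae and nail, which ranged from 7.6 to 7.87. Krt31, Krt33a, Krt34 and Krt82 were well above background on 0 arrays, and Krt86 and Krt87 on day 7 replicate 2 alone, at 7.29 and 7.41. Keratin-associated proteins crosslink the keratin filaments of the shaft. Of 23 on the array, 7 passed, 0 were called, and the list's median was -0.33 at day 4 and 0.15 at day 7 against day 2. All 7 lay above their day 4 value at day 7, with a median of 0.4, and the groups did not overlap for 5 of them, against 19.8% of all genes. Krtap9-1 stood at 8.43 and 7.88 on day 2, 7.69 and 7.6 on day 4 and 8.41 and 8.37 on day 7 (0.75 from day 4 to day 7, limma adjusted p = 0.471), and Krtap3-2 at 10.01 and 9.96, 9.59 and 9.47, and 10.12 and 9.95. Whether probes of these gene families also bind close paralogs was not tested.

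Other follicle genes gave no call. The 13 growth-phase regulators that passed, of 22 listed, had medians of -0.03 and -0.01 at days 4 and 7 against day 2, which turned to 0.12 and 0.13 without day 2 replicate 1. They include Elf5, a factor of the matrix and sheath (8.05 to 8.32), and Wnt10a, a ligand of the growing follicle, which was highest on the day 2 arrays (11.81 and 11.68, against 11.38 to 11.62 later). Bulge and resting-follicle genes had a median of 0.11 at day 7, which turned to -0.13 without day 2 replicate 2. Their members of lowest p were Cd34, a surface marker of bulge stem cells and vessels, at 14.39 and 14.45 on day 2 and 14.81 to 14.94 later (0.48 at day 7, limma adjusted p = 0.268), and Lgr5, a stem cell receptor, at 8.74 and 8.68 and then 9.03 to 9.15 (0.43, adjusted p = 0.282). Dermal papilla genes, of the cell cluster that steers the follicle, had a median of -0.11 at day 7 (-0.01 without day 2 replicate 2 and -0.21 without day 7 replicate 2), and 1 of 10 lay above 0. Follicle growth inhibitors had a median of 0.1, with Bmp6 at 7.62 to 8.02. The 8 melanocyte genes that passed had medians of 0.05 and 0.19 at days 4 and 7, with 5 of 8 above 0 each time. The day 7 median was 0.01 with no filter and 0.29 without day 2 replicate 2. Among them Pmel is a protein of the pigment granule. It stood at 7.94 and 8 on day 2, 8.33 and 8.03 on day 4 and 8.53 and 8.62 on day 7. Its difference at day 7 was 0.6 (limma adjusted p = 0.258), and that of Rab38 was 0.48 (adjusted p = 0.28). Gpnmb, of the same list, differed by -0.66 at day 4 and by -0.07 at day 7. In whole skin, fewer cells of a type and less RNA per cell cannot be told apart.

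Pcsk2 and a transcript without a symbol also rose at day 7. Pcsk2 encodes a protease that matures peptide hormones. It stood at 7.12, 7.03, 6.94 and 7.04 on the arrays of days 2 and 4 and at 8.15 and 8.2 on day 7, with no overlap. Pcsk2 was well above background on both arrays of days 4 and 7 and on neither array of day 2, although day 4 was no brighter. It was at least 2.14-fold higher at day 7 than at day 2 (1.1, SE 0.115, limma adjusted p = 0.0466) and 2.27-fold higher than at day 4 (1.18, adjusted p = 0.0448). Its other probe was well above background on 0 arrays and differed by -0.1. The call against day 2 was lost under 13 of 17 alternatives, including without any 1 of the 6 arrays (adjusted p = 0.0531 to 0.257), and that against day 4 under 10 of 17 (up to 0.262, and 0.149 with the replicate number as a block). The other transcript has no symbol in the table used for naming, so that it is assigned to no gene or list here. It passed the filter through day 7 alone, like the sheath keratins, so that the filter favoured a brighter signal there. It stood at 7.09, 6.97, 7.04 and 7.13 and then at 8.43 and 8.45, at least 2.66-fold higher than at day 2 (1.41, SE 0.116, limma adjusted p = 0.0168) and 2.56-fold higher than at day 4 (1.36, adjusted p = 0.0223). Without day 2 replicate 1, day 2 replicate 2 or day 7 replicate 1 its call against day 2 was lost (adjusted p = 0.127, 0.085 and 0.156). The call against day 4 was lost under 7 of 17 alternatives (up to adjusted p = 0.22), including the block (0.0894).

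Pf4, platelet factor 4, is a chemokine stored in platelets and their precursors and also made by some macrophages. It is the single gene called between days 2 and 4, and the 4 arrays concerned lay on 1 slide. It stood at 9.21 and 9.4 on day 2, at 13.11 and 12.3 on day 4 and at 11.68 and 11.84 on day 7, well above background on all 6 arrays. Day 2 was low on both arrays and every later array was more than 2 log2 units higher. The rise was 3.4 to day 4 (SE 0.246, 10.6-fold, limma adjusted p = 0.0279) and 2.45 to day 7 (SE 0.246, 5.48-fold, adjusted p = 0.0421), and day 7 lay 0.95 below day 4 without a call. The size varied little over the alternatives, from 3 to 3.81 at day 4. The call at day 4 was lost under 7 of 19, including without day 2 replicate 1 (adjusted p = 0.211), without day 2 replicate 2 (0.11), without either day 7 array or with days 2 and 4 fitted alone (0.243). That at day 7 was lost under 10 of 18, including without either day 2 array or either day 7 array (adjusted p = 0.0516 to 0.257).

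Markers of platelets and macrophages, and genes of red blood cells, gave these values. Gp1bb, a subunit of a platelet receptor, stood at 7.36 and 7.54 on day 2, 7.34 and 7.36 on day 4 and 8.62 and 7.53 on day 7. The 4 red blood cell genes that passed had medians of -0.17 (0.02 without day 4 replicate 2) and -0.36 at days 4 and 7, with Hba-a1, a haemoglobin chain, between 11.74 and 12.81. The 16 macrophage genes had a median of 0.24 at day 4, which turned to -0.08 without day 2 replicate 1, and of 0.05 at day 7, which turned to -0.23 without the same array. Among them Mrc1, the mannose receptor, stood at 10.93 and 11.24 on day 2 and at 11.51 and 11.41 on day 4 (0.37, limma adjusted p = 0.412), and the scavenger receptor Cd163 was 0.27 lower. Clec10a stood at 13.71 and 14.59 on day 2 and at 14.65 and 14.84 on day 4 (0.59, limma adjusted p = 0.45), and Marco differed by -0.23. At day 7 the differences from day 2 were 0.09 for Mrc1, -0.26 for Cd163, 0.47 for Clec10a and 0.94 for Marco, none called. The part of blood or macrophages in the Pf4 values was not tested.

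Gsta3, a glutathione transferase of the alpha class, was the single gene that fell. It stood at 11.76 and 11.53 on day 2, at 10.42 and 10.18 on day 4 and at 10.29 and 10.25 on day 7. The day 2 arrays were more than 1 log2 unit above all later arrays. The drop from day 2 was -1.38 at day 7 (SE 0.14, 2.6-fold lower, limma adjusted p = 0.0421) and -1.35 at day 4, which was not called (adjusted p = 0.172). A second probe of the gene gave -1.44 and -1.26. The call was lost under 10 of 18 alternatives, including without day 2 replicate 1, day 2 replicate 2, either day 4 array or day 7 replicate 1 (adjusted p = 0.0561 to 0.257). Of 24 genes for glutathione and foreign-compound metabolism that passed, Gsta3 was the only one called, 7 lay above 0 at day 7, and the median was -0.19 on both later days. The ethanol-oxidising dehydrogenase Adh1 stood at 12.17 and 12.2 on day 2, 12.07 and 11.42 on day 4 and 11.69 and 11.6 on day 7 (-0.54, limma adjusted p = 0.375). Cyp1a1, a foreign-compound oxidase, stood at 9.71 and 9.11 on day 2 and at 8.8 to 8.96 later (-0.59, adjusted p = 0.33). Members varied in direction, since Hmox1, haem oxygenase, was 0.53 higher at day 7 (adjusted p = 0.293).

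No other gene list held a called member in any comparison, so that the lists below are described by counts and medians. Of all genes, 50.2% lay above 0 from day 2 to day 4, 48.9% from day 2 to day 7 and 47.9% from day 4 to day 7. At day 4, the 29 genes for fibroblast collagens and matrix that passed had a median of 0.28 (0.19 to 0.39 over the alternatives). Of these, 24 lay above 0, and both day 4 arrays were above both day 2 arrays for 15 of 29, against 22.5% of all genes. At day 7 against day 2 the median was 0.15 (0.09 to 0.27 over the alternatives). Above 0 were then 21, and 14 of 29 did not overlap upward, against 25.4% of all genes. Col3a1, the second main fibril collagen of skin, stood at 15.01 and 15.54 on day 2, 16.25 and 16.16 on day 4 and 15.75 and 15.72 on day 7. Col1a1 stood at 15.46 and 15.72, then 16.31 and 16.18, then 15.86 and 15.9. Col5a1 and Col5a2, which make the collagen that starts fibrils, were 0.91 and 0.8 higher at day 4 (limma adjusted p = 0.31 each), although a dimmer second probe of Col5a1 gave -0.2, and Col5a2 was 0.7 lower again at day 7 than at day 4 (-0.7, adjusted p = 0.296). Col5a3, a related chain, was 1.07 higher at day 4, and Fbn1, the microfibril protein, was 0.94 and 0.95 higher on its probes. Not all matrix genes rose, as Mmp2 differed by -0.3. Dcn differed by 0.13, with day 4 arrays on either side of day 2 (15.87 and 16 on day 2, 16.53 and 15.61 on day 4).

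Interferon-responsive genes, which are switched on in antiviral defence, had a median of 0.26 over 26 members at day 4 (0.06 to 0.47 over the alternatives). Here 20 lay above 0 and 11 did not overlap upward, against 22.5% of all genes. The array medians were 0.35 on day 4 replicate 1 and 0.02 on day 4 replicate 2, and -0.19 and -0.07 on the day 2 arrays. Oas2, an antiviral synthetase, stood at 8.03 and 8.29 on day 2, 8.88 and 8.92 on day 4 and 8.7 and 8.66 on day 7 (0.74 at day 4, limma adjusted p = 0.31). Oasl2 stood at 8.82 and 9.38 on day 2, 10.25 and 9.88 on day 4 and 9.28 and 9.43 on day 7 (0.96 at day 4, limma adjusted p = 0.325). Isg15, a ubiquitin-like protein, stood at 8.96 and 9.46, then 10.25 and 9.34, then 9.38 and 9.15, which puts its peak on day 4 replicate 1. At day 7 the list's median was 0.01 against day 2 and -0.25 against day 4, and 14 of 26 did not overlap downward from day 4, against 20.5% of all genes.

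Genes for cytosolic ribosomal proteins had a median of -0.22 at day 4 over 67 members (-0.57 with background-subtracted signals). Of these, 9 lay above 0, 40 of 67 did not overlap downward, against 22.3% of all genes, and 0 were called. Rps19 stood at 11.3 and 11.57 on day 2, 10.91 and 10.37 on day 4 and 11.2 and 11.09 on day 7. Genes of the mitochondrial respiratory chain had a median of -0.2 (-0.44 with background-subtracted signals), with 5 of 47 above 0, and Atp5d, a subunit of ATP synthase, stood at 12.46 and 12.38, then 11.71 and 11.85, then 12.46 and 12.37. At day 7 the medians of both lists lay nearer 0, at -0.07 (0.02 with cyclic loess) and -0.1. Above 0 were then 23 of 67 and 8 of 47, and 28 and 20 did not overlap downward, against 24.8% of all genes. The spike-in control transcripts also differed between arrays. Their mean was 10.32 and 10.43 on day 2, 10.11 and 9.1 on day 4 and 9.99 and 10.04 on day 7. Their median difference from day 2 was -0.795 at day 4 and -0.355 at day 7 (-0.47 to -0.23 over the 10 spike-ins). On day 4 replicate 2, which had the lowest spike-in mean, the array medians of both lists were -0.16, and on day 4 replicate 1 they were -0.07 and -0.03. The part of the arrays in the values of both lists was not tested.

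The genes of lowest p below their day 2 level at day 4, Gsta3 aside, were not called (limma adjusted p = 0.31 each). Inmt, a methyltransferase of small amines, stood at 11.26 and 11.8 on day 2, 9.41 and 10.08 on day 4 and 9.45 and 9.95 on day 7, a difference of -1.78 at day 4. Cys1, a protein of the primary cilium, stood at 9.78 and 10.09, then 8.73 and 8.86, then 9.31 and 9.17. Rpl39l, a ribosomal protein paralog, and C1qtnf7, a secreted factor, differed by -0.95 and -1.01. In all 4 genes the day 2 arrays lay above every later array. Among those above their day 2 level, Gng12, a G protein subunit, was 0.72 higher on the probe used and -0.03 on its other probe.

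Skeletal muscle genes differed between the arrays of day 4. Their median was -0.22 on day 4 replicate 1 and 0.51 on day 4 replicate 2, and between -0.15 and 0 on the other arrays, so that the day 4 median of 0.13 turned to -0.25 without replicate 2. Ttn, the giant spring protein of the sarcomere, was 1.1 higher at day 4 on the probe used, while its 8 probes ranged from -0.91 to 1.1. Csrp3, a muscle LIM protein, stood at 11.65 and 11.45 on day 2, 10.88 and 10.66 on day 4 and 10.33 and 10.01 on day 7 (-1.38 at day 7, limma adjusted p = 0.0693). Sln, an inhibitor of the muscle calcium pump, stood at 11.07 and 10.56, then 9.76 and 9.68, then 9.28 and 9.54 (-1.41, adjusted p = 0.143). Both were lower on all 4 later arrays than on day 2. Neither is on the muscle list, whose median at day 7 was -0.06. Dusp26, a phosphatase, stood at 9.04 and 8.97, then 8.53 and 8.5, then 8.05 and 8.23 (-0.87 at day 7, adjusted p = 0.17 by limma). Below their day 4 level at day 7, also without a call, were Hspb7, a small heat shock protein of muscle (-0.72, limma adjusted p = 0.395), the olfactory receptor gene Olfr549 (-0.61, adjusted p = 0.395) and Etv5, a transcription factor that was well above background at day 4 alone (-0.55, adjusted p = 0.422).

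**Figure D3:**
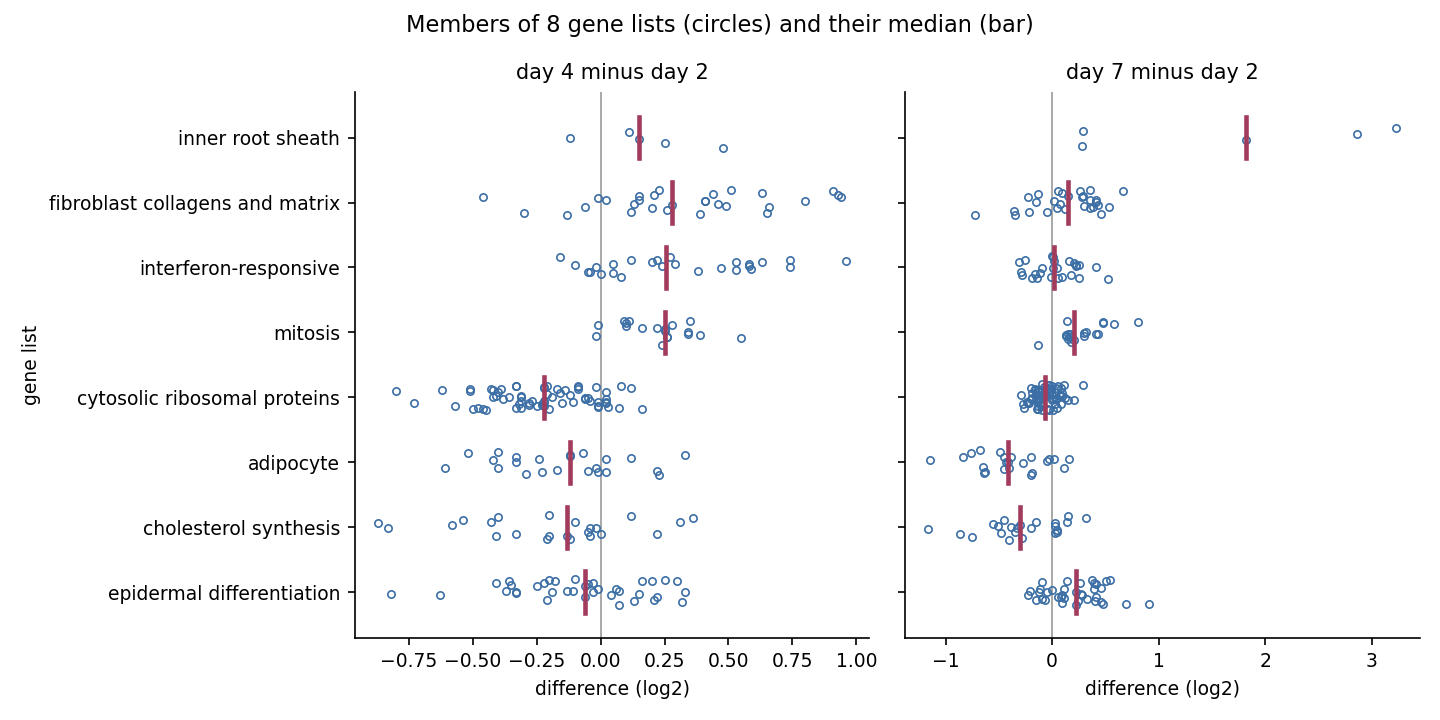
Differences from day 2 (log2) at day 4 (left) and day 7 (right) for the members of 8 gene lists that passed the filter; circles are genes and bars the list medians. Collagen and matrix genes lie mostly right of 0 on both days, and interferon genes do so at day 4. Ribosomal protein and adipocyte genes lie mostly left of 0 on both days, the first further at day 4 and the second further at day 7.

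At day 7 against day 2, mitosis genes had a median of 0.21 over 19 members, with 18 above 0 and 13 that did not overlap upward, against 25.4% of all genes. The median at day 7 was 0.39 with processed signals. Their median at day 4 was 0.25, with 17 above 0, and 0.12 without day 4 replicate 1. Ccna2, cyclin A2, stood at 8.91 and 8.86 on day 2, 9.29 and 9.01 on day 4 and 9.67 and 9.73 on day 7 (0.81, limma adjusted p = 0.216), and Kif20a, a kinesin of cell division, at 9.11 and 8.87, then 9.58 and 9.51, then 9.42 and 9.54. Genes of DNA replication had medians of -0.13 at day 4 (0.01 without day 4 replicate 2) and 0.07 at day 7 (-0.03 without day 2 replicate 1), and Mcm7, a helicase subunit, stood at 10.91 and 10.63, then 10.63 and 10.51, then 11 and 11.08.

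The epidermal differentiation list, 37 members, had a median of 0.22 at day 7, with 27 above 0 and 19 that did not overlap upward, against 25.4% of all genes. Sprr2d, a precursor of the cornified envelope, stood at 8.35 and 8.53 on day 2, 8 and 8.45 on day 4 and 9.12 and 9.59 on day 7 (0.91, limma adjusted p = 0.258). Lce1c, a late envelope protein, was 0.48 higher (adjusted p = 0.317). Lce3c and Lce1g differed by 0.28 and -0.21 at day 7, and by -0.41 and -0.82 at day 4. The day 7 median depended on day 2, as it was 0.06 without day 2 replicate 2 and 0.33 without day 2 replicate 1. At day 4 the list's median was -0.06 (0.08 without day 2 replicate 1), with 14 of 37 above 0. Basal keratinocyte and hemidesmosome genes had a median of 0.14 at day 7 (0.02 without day 2 replicate 2), with 10 of 14 above 0. Col17a1, a collagen that anchors basal keratinocytes, stood at 14.35 and 13.66, then 14.27 and 14.31, then 14.68 and 14.8. Its other probe was 0.2 higher at day 7. Cd151, of the same list, stood at 13.04 and 13.23, then 12.82 and 12.47, then 12.01 and 12.61 (-0.83, limma adjusted p = 0.28). Activated keratinocyte and alarmin genes, 22 in all, had a median of -0.23 at day 4 (-0.3 to -0.14 over the alternatives). Of these, 4 lay above 0 and 10 did not overlap downward, against 22.3% of all genes. The list's median at day 7 against day 2 was -0.01. From day 4 to day 7 it was 0.13, with 17 of 22 above 0. The alarmin S100a9 stood at 11.2 and 11.84, then 10.88 and 10.15, then 11.87 and 12.23, which is 1.53 higher at day 7 than at day 4 without a call. Defb3, of the same list, differed by -0.23 over that interval. Genes of MHC class II and of Langerhans cells, the antigen-presenting cells of the epidermis, had a median of 0.17 at day 7. Of the 14 genes, 12 then lay above 0. At day 4 their median was -0.15 (0.03 without day 4 replicate 2), with 4 of 14 above 0. Cd207, the Langerhans cell lectin, stood at 11.38 and 11.08, then 11.09 and 10.88, then 11.66 and 11.79 (0.49 at day 7, limma adjusted p = 0.317). Ciita, of the same list, differed by -1.11 at day 4 and by -0.68 at day 7 (limma adjusted p = 0.411 and 0.541).

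Lipid genes had medians under 0 on both later days, and the values at day 7 are given first. Adipocyte genes had a median of -0.41 over 23, with 3 above 0 and 14 that did not overlap downward, against 24.8% of all genes. Pck1, an enzyme of glycerol synthesis in fat, stood at 12.15 and 12.5 on day 2, 12.19 and 12.37 on day 4 and 11.01 and 11.33 on day 7 (-1.15, limma adjusted p = 0.17). Fabp4, the fatty-acid carrier of fat cells, stood at 16.13 and 16.18, then 15.68 and 15.58, then 15.57 and 15.36 (-0.68, adjusted p = 0.225). The adipocyte median depended on day 2 replicate 2, whose array median was 0.37, and was -0.18 without it. Cholesterol synthesis genes had a median of -0.3, with 8 of 23 above 0 and 13 that did not overlap downward. Lss, lanosterol synthase, stood at 9.7 and 9.47, then 8.65 and 8.86, then 8.8 and 8.87 (-0.75, limma adjusted p = 0.225), and Mvd at 11 and 10.87, then 10.24 and 10.48, then 9.78 and 10.37. Among sebaceous gland genes, whose median was -0.12, Elovl3, which lengthens fatty acids, stood at 12.22 and 11.57 on day 2, 10.83 and 10.29 on day 4 and 10.33 and 10.61 on day 7 (-1.42, limma adjusted p = 0.225). For Elovl3 and Lss, as for Gsta3, the level was high on the day 2 arrays and similar on both later days. At day 4 the list medians were -0.12 for adipocyte genes (0.09 without day 4 replicate 1), -0.13 for cholesterol synthesis and -0.1 for sebaceous gland genes. Above 0 were then 6 of 23, 4 of 23 and 6 of 15 genes.

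**Figure D4:**
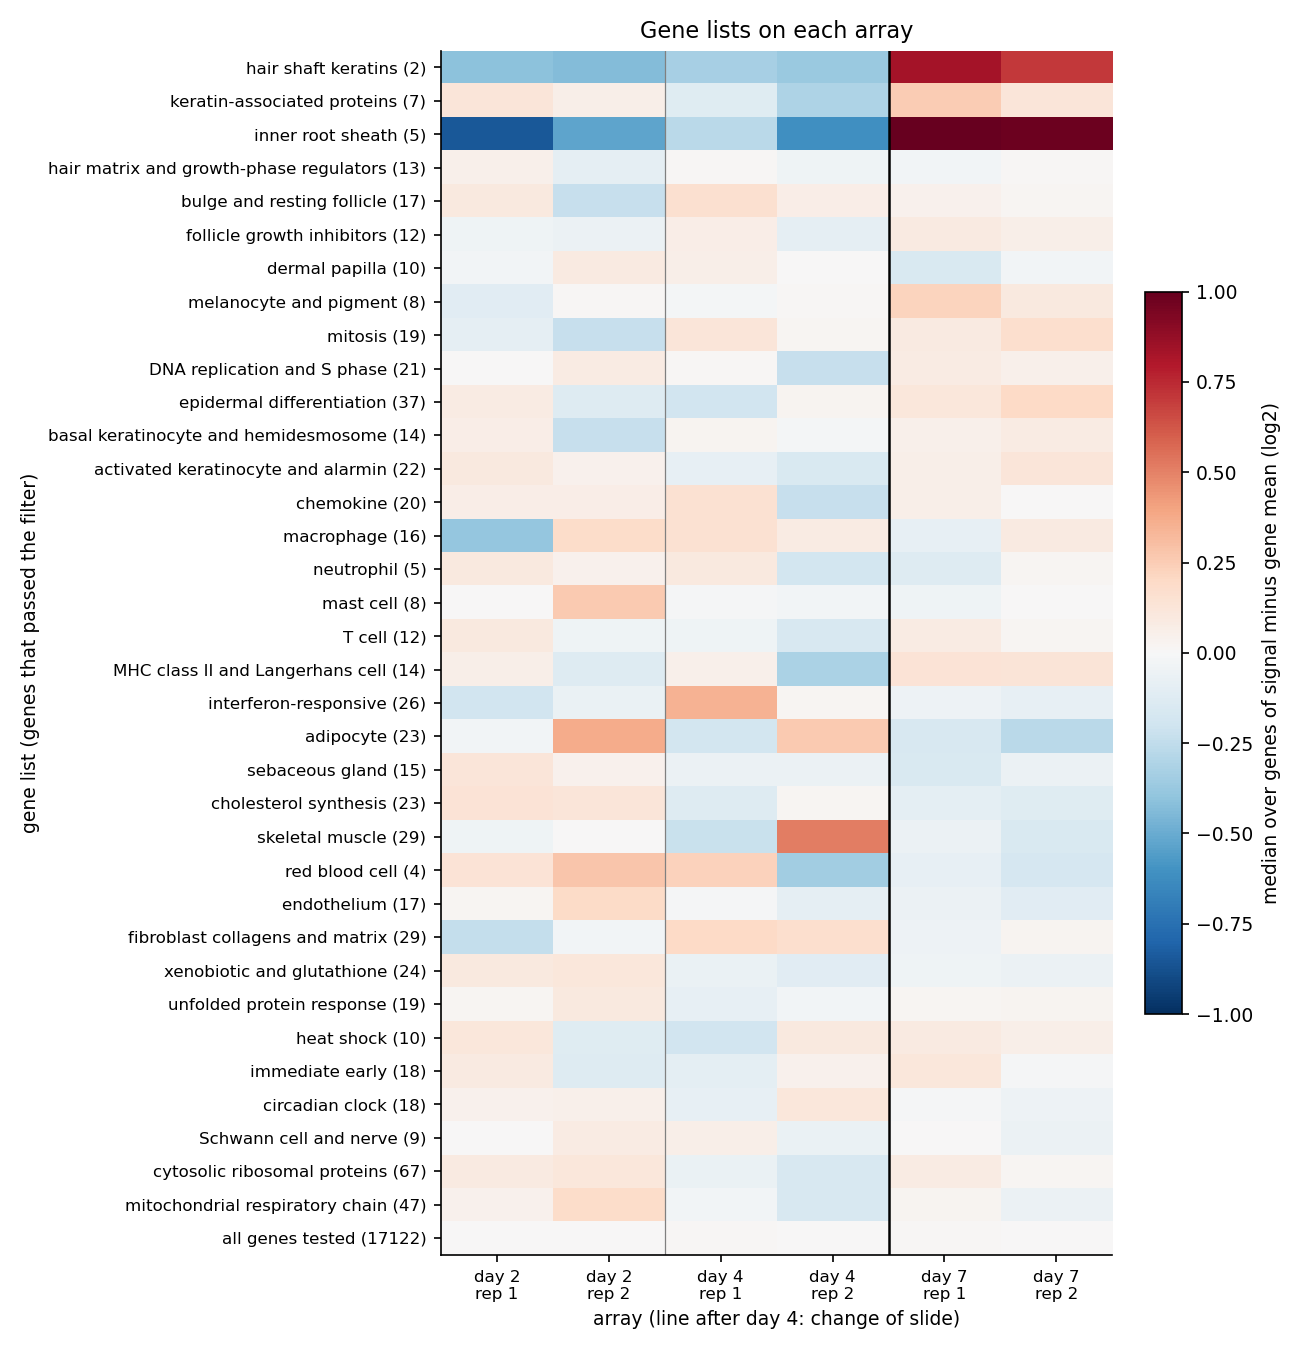
Colour gives, for each gene list (rows, number of genes in brackets) and array (columns), the median over genes of the log2 signal minus that gene's mean over the 6 arrays; the scale ends at 1, which the inner root sheath passes on day 7 replicate 1 (1.28), and the black line separates the slides. The inner root sheath and hair shaft rows are high on day 7, where the first rests on 3 keratins that passed the filter through day 7 alone and the second, of 2 genes, on Krt35, and the skeletal muscle row is high on day 4 replicate 2 alone.

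Other immune and vessel lists gave no call. Medians at days 4 and 7 against day 2 were -0.1 and 0.02 for T cells (-0.04 at day 7 with processed signals), -0.1 and -0.06 for chemokines (0.03 at day 7 without day 7 replicate 2) and -0.1 and -0.13 for mast cells. The 17 endothelial genes had medians of -0.15 and -0.2, and 11 did not overlap downward at day 7, against 24.8% of all genes. The day 7 median was -0.07 without day 2 replicate 2 and -0.35 with processed signals. Emcn, a vessel sialomucin, stood at 10.84 and 10.94 on day 2, 10.54 and 10.49 on day 4 and 10.38 and 10.39 on day 7 (-0.5 at day 7, limma adjusted p = 0.255). Of 11 neutrophil genes on the array 5 passed, with medians of -0.13 (0.02 without day 4 replicate 2) and -0.08. Mpo, the neutrophil peroxidase, stood at 11.47 and 10.42 on day 2, 9.8 and 8.09 on day 4 and 8.73 and 8.85 on day 7, which is a difference of -2.16 at day 7 with a wide spread between the arrays of days 2 and 4 (limma adjusted p = 0.274). Cxcl13, a chemokine for B cells, stood at 8.92 and 8.72, then 8.77 and 8.05, then 7.49 and 8.14 (-1 at day 7, limma adjusted p = 0.293). Stress, immediate early, clock and nerve lists had medians between -0.1 and 0.13 against day 2. Nfil3, a clock-linked repressor, stood at 10.03 and 9.82, then 9.46 and 9.32, then 9.31 and 9.26 (-0.64 at day 7, limma adjusted p = 0.231).

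Whole-array comparisons show how close the days were. The 2 arrays of a day differed by a median absolute log2 of 0.125, 0.169 and 0.126 over genes at days 2, 4 and 7, and arrays of different days by 0.128 to 0.218. The range of the between-day pairs thus began at the level of replicates, and day 4 replicate 1 was about as close to day 7 replicate 2 (0.128) as replicates of days 2 and 7 were to each other. The widest pair joined day 4 replicate 2 and day 7 replicate 1, with 1.83% of genes at least 2-fold apart, against 0.433% for the replicates of day 2.

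**Figure D5:**
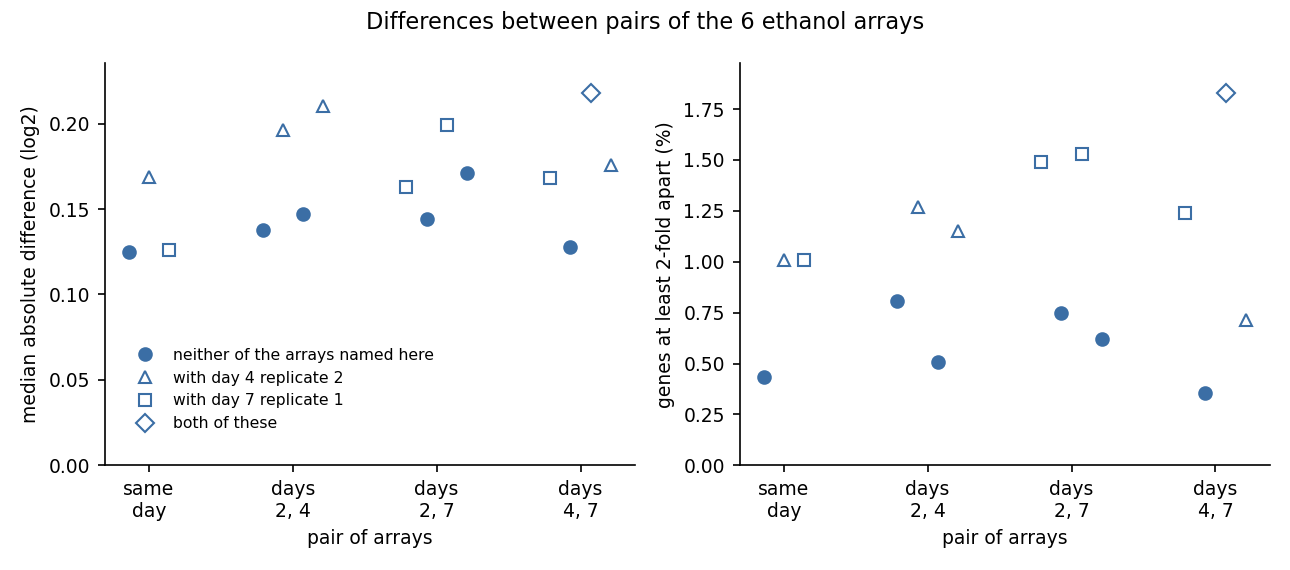
For each pair of arrays, the median absolute log2 difference over genes (left) and the percentage of genes at least 2-fold apart (right), by the days of the pair; open symbols mark pairs with day 4 replicate 2 (triangles), day 7 replicate 1 (squares) or both (diamond). Pairs of the same day span 0.125 to 0.169 and pairs of different days 0.128 to 0.218, and every pair above 0.171 holds one or both of these arrays.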

How the data were processed

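The Cy3 channel of 6 arrays was analysed, and the Cy5 channel and the deposited log ratios were not used here. Median pixel intensity per spot and per local background was taken from the deposited scanner output of Agilent Feature Extraction (9.1.3.1 per the file headers, 9.1 in the submitters' processing notes), and these columns carry no normalization. Of 45018 spots per array, the 1639 controls were dropped once the background had been corrected. Intensities were corrected with normexp (offset 50) and quantile-normalized in limma 3.58.1 (R 4.3.3). Spots marked as outliers, 6 to 77 per array, were dropped, and 68 genes thus lack a value on some array. Spots of a probe were averaged, and a gene was represented by its brightest probe on average. Of 41174 probes, 22951 were named by accession and 67 by symbol in a RefSeq table of GRCm38.p6, and 18156 were not. Of these probes 21606 passed the filter, giving 17122 genes, 11440 with a symbol.

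The fit had 3 residual and 4.33 prior degrees of freedom, and the median SE of a difference was 0.139. "At least" folds set the bright day's mean against, per array, the higher of the lowest signal well above background and the gene's own. The fit was tested on simulated data. Named per comparison were the 10 largest called differences in a direction, filled where fewer were called with the lowest unadjusted p up to 5, and per list up to 4 called members, or else the 2 of lowest p; cell type markers were named as a check. Gp1bb, Isg15, Mmp2, Adh1, Cyp1a1, Hmox1, Hamp2, list genes well above background on 1 array and the genes that stand out on 1 array were chosen after their values were seen. The comparison and the lists were chosen with earlier results of these data known. Replicate numbers come from the titles, since every description reads replicate 1 of 2. Deviations of same-numbered arrays correlated at -0.0457, 0.0751 and 0.0385. No pairing by number was thus seen, which with 2 arrays a day does not show that samples are unpaired. Alternatives covered normalization, background, filter, probe choice, variance model, block and each array left out.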

Additional observations from a re-analysis of the deposited data

How the results depend on the processing

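Counts are of genes called from day 2 to 4, day 2 to 7, day 4 to 7 and among any days, which were 1, 8, 5 and 5. With the scanner software's processed signals they were 0, 67, 26 and 25, and with background-subtracted signals, chosen after seeing the data, 0, 40, 23 and 21; of the 8 genes called from day 2 to 7, 4 were also called under each. Where only genes well above background on all arrays were tested, the last 3 counts were 0 each at an adjusted p of 0.05 (limma; 1710, 1310 and 1810 genes at an unadjusted p under 0.05), since the follicle keratins, Pcsk2 and the transcript without a symbol were then not tested and Pf4 and Gsta3 had an adjusted p of 0.119 each. From day 2 to 7 there were 4 calls with a normexp offset of 16 and 4 with no filter. From day 4 to 7 there were 2 without background correction. The count for any difference was 8 with median centring and 8 with array weights. With the replicate number as a block, the counts were 2 for days 2 to 4, 2 for days 4 to 7 and 3 for any difference, and a fit of days 2 and 4 alone gave 0 (limma; 1666 at an unadjusted p under 0.05). Leaving out 1 array gave 0 to 21, 3 to 112, 2 to 110 and 3 to 75. The highest counts came without day 7 replicate 2 (112, 110 and 75), when day 7 rests on replicate 1 alone and that array is assumed to vary like the others, and without day 4 replicate 1 (21 from day 2 to 4, 10 from day 4 to 7 and 18 for any). Without day 2 replicate 1 the counts were 0, 3, 2 and 3, without day 2 replicate 2 there were 2 from day 2 to 4 and 2 from day 4 to 7, and without day 4 replicate 2 there were 2 from day 2 to 4, 5 from day 2 to 7 and 3 from day 4 to 7. Without day 4 replicate 1 or day 7 replicate 1 there were 5 from day 2 to 7. Without either day 7 array there were 0 from day 2 to 4. The causes were not tested. No count or named gene's call reversed. Several list medians near 0 changed sign, and so did the inner root sheath from 1.57 to -0.2 at day 7 against day 4 where its keratins were not tested. Among counts, cyclic loess, the mean of all probes and the variance trend stayed within 1.5 times. Of the single genes named, 85 of the values over alternatives fell short of a call made and 11 gained one. Genes near background, such as the follicle keratins on days 2 and 4, have signals there that bound their folds only.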

Other observations

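A few genes stood far from the rest on 1 array alone. Hes5, a target of Notch signalling, stood at 9.73 on day 7 replicate 1 against a median of 7.02 on the others, and the fatty-acid enzyme gene Tecr at 8.7 against 11.16. The chaperone gene Dnajc3 was at 8.68 on that array against 10.89. Wnt4, a signalling ligand, stood at 5.7 on day 4 replicate 2 against 9.74, and Tkfc at 11.19 on day 2 replicate 1 against 7.57. Foxn1, a factor of hair and nail keratinocytes, stood at 8.75 on day 7 replicate 2 against 7.41. The keratin-associated protein gene Krtap19-5 was well above background on day 2 replicate 1 alone, at 9.31 against 6.02 to 6.43.

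Hamp2, a gene of the hepcidin family, was chosen after its values were seen. It stood at 10.02 and 11.25 on day 2, 11.68 and 12.44 on day 4 and 12.8 and 12.64 on day 7. The difference at day 7 was 2.09 (limma adjusted p = 0.225), with the arrays of day 2 apart by more than 1 log2 unit. Marco, a macrophage scavenger receptor, stood at 10.55 and 10.33, then 10.77 and 9.66, then 11.56 and 11.19 (1.16 from day 4 to day 7), and both day 7 arrays lay above the other 4.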
